A study of Mus musculus with 10 samples.

Results

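Neutrophil granule and surface genes were followed in bulk RNA-seq of F4/80+ macrophages sorted from resistant Braf-mutant melanomas. The members were 10 genes named by symbol, S100a8, S100a9, Ltf, Ngp, Camp, Lcn2, Csf3r, Cxcr2, Retnlg and Cd177, of 55359 genes in the files. All 10 had a row, and 9 held enough reads to be tested, with Camp left out by the filter on low counts. The 10 libraries came from male mice, 5 of them Ccr2 KO (Ccr2RFP/RFP), in which an RFP allele replaces Ccr2 on both chromosomes, and 5 Control (Ccr2RFP/+), which carry the same RFP allele beside a working copy. Every tumour was labelled resistant/rebound and every mouse had received Braf/Mek inhibitors daily until the tissue was taken. The titles call the controls WT, although they are heterozygous. No label gives the age of the mice, the tumour model or the animal behind a library, so the p-values rest on the spread among these libraries, part of which may be technical.

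Neutrophils are short-lived phagocytes that leave the bone marrow with their granules already filled. The marrow stages of the lineage transcribe the granule protein genes Ltf, Ngp, Camp, Lcn2 and Cd177, whereas S100a8, S100a9, Csf3r and Cxcr2 are transcribed in circulating neutrophils as well. Several are shared with other myeloid cells: classical monocytes contain S100a8 and S100a9, and monocytes and macrophages can transcribe Csf3r. The comparison asks how these transcripts differ in macrophage sorts from tumours of mice without Ccr2, a chemokine receptor that inflammatory monocytes need to leave the marrow.

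Libraries held between 34639808 and 43360206 counts in genes. Ccr2 had 147 to 261 counts in the Ccr2 knockout libraries and 2225 to 7270 counts in the control libraries, so each library matched its genotype label. Adgre1, which encodes the F4/80 antigen used for the sort, stood at 1562 to 2020 CPM (counts scaled to a common library size of 1e6) in Ccr2 knockout libraries and 1704 to 1981 CPM in controls. Control libraries 1 and 2 were much alike, as were control libraries 3 and 4: the median chi-square per gene was 2.75 and 2.66 within these pairs, against 5.71 for the next closest pair, knockout library 2 with control library 3. Ly6g, the antigen gene that defines mouse neutrophils, had 2 counts in all Ccr2 knockout libraries together and 30 in all control libraries together. Reads that map to more than 1 place are listed as 0, so any read shared between Ly6g and another gene is not in these counts. A gene with 0 counts could still have been present at up to 0.0659 to 0.0857 CPM, depending on the library (3 counts, counting error only).

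Of the 9 members tested, 1 fell in Ccr2 knockout macrophages, Cd177. Among all 14374 genes tested, 0.543% were called lower, 0.87% higher and 1.41% in either direction at an adjusted p under 0.05 (edgeR quasi-likelihood test with Benjamini-Hochberg adjustment). At an unadjusted p under 0.05, 5 of the 9 were lower, as were 7.28% of all genes tested. The other members tested also had negative log2 fold changes, with a median of -2.34 over the 9, while 50.5% of all genes tested had a negative value and their median was -0.0034. A log2 fold change of -2 or lower was fitted for 5 of the 9 and for 0.814% of all genes. These shares describe the members that passed the filter on low counts, and low genes that are high in 1 genotype pass it more readily.

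**Figure D1:**
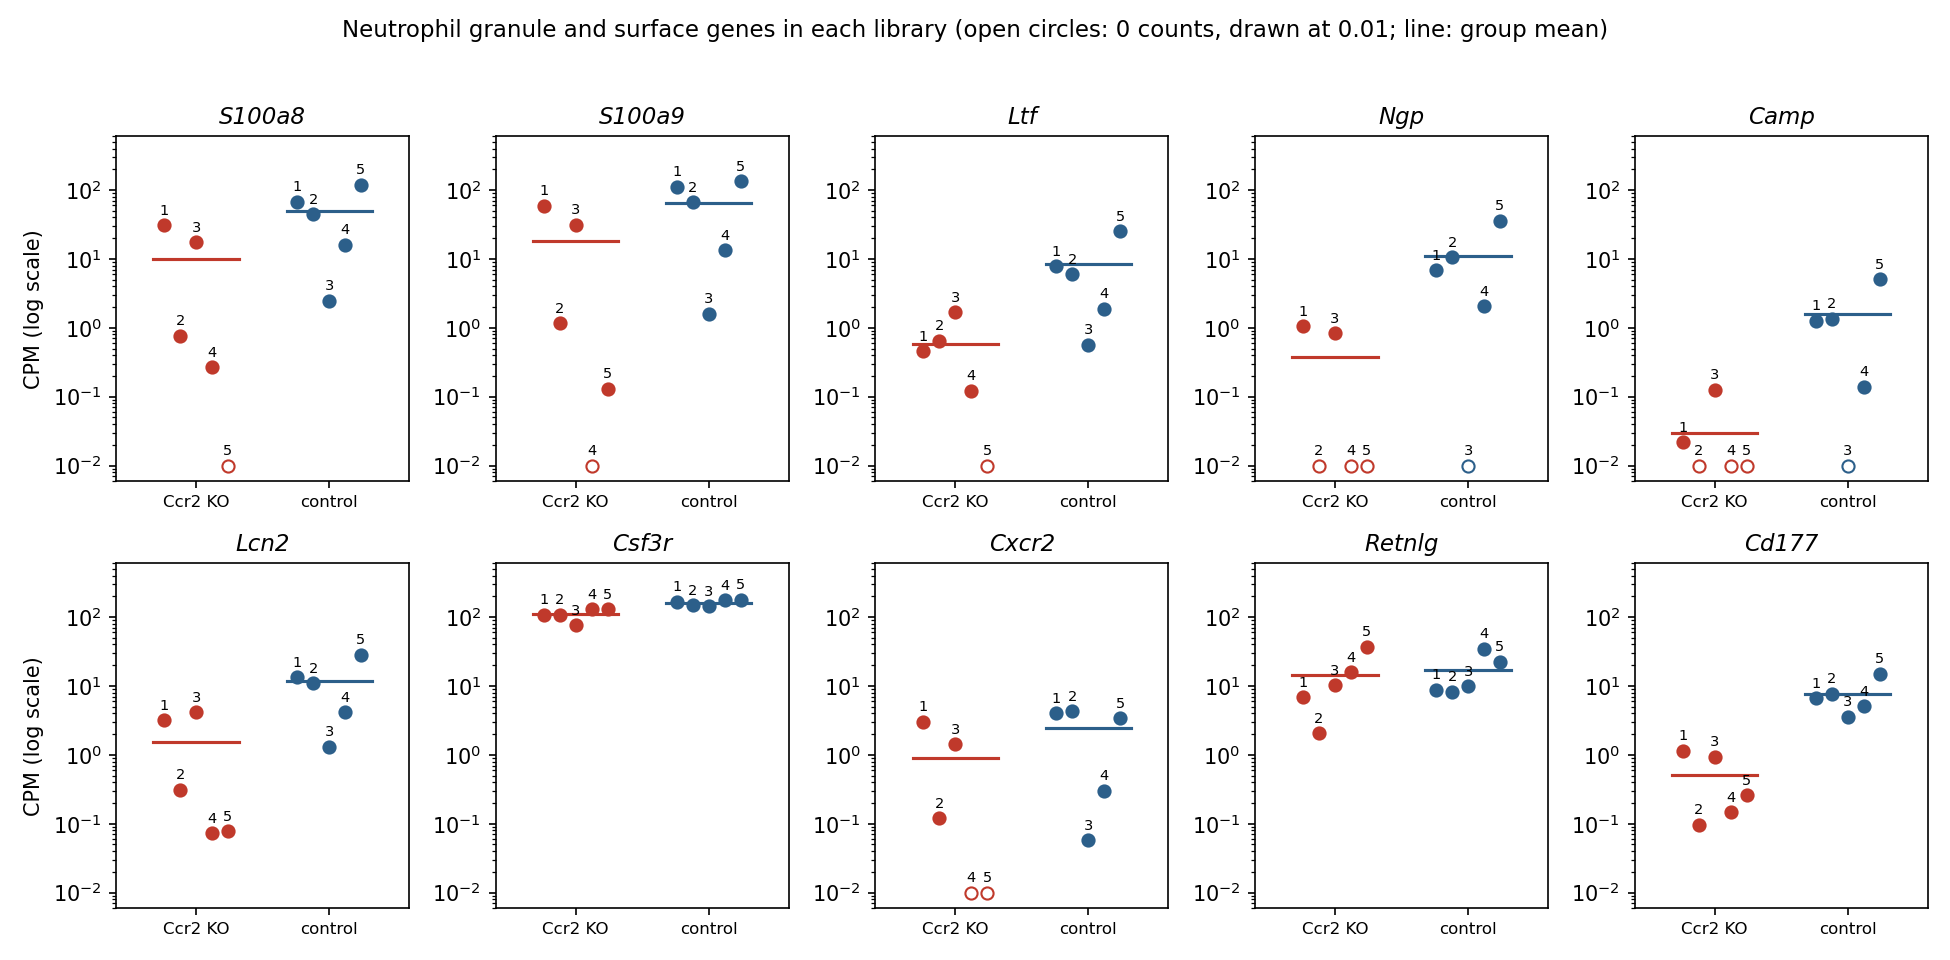
CPM of each gene in each library on a log axis, with Ccr2 knockout libraries left of control libraries, replicate numbers above the points and lines at the group means; open circles mark 0 counts. Cd177 and Csf3r separate the genotypes without overlap, Retnlg does not, and the remaining 7 spread widely within both genotypes, with control library 3 near or at 0 for Ngp and Camp.

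**Figure D2:**
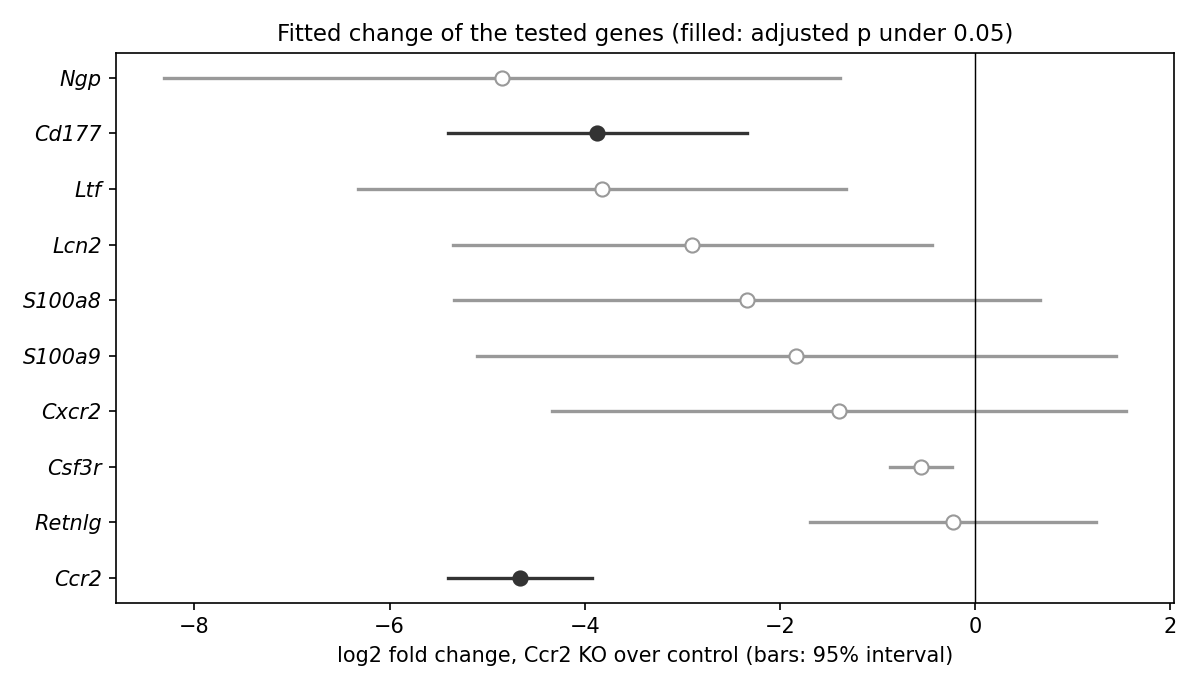
Fitted log2 fold change (Ccr2 knockout over control) with its 95% interval for the 9 tested members and Ccr2, filled where the adjusted p was under 0.05. The intervals of Ngp, Cd177, Ltf, Lcn2 and Csf3r lie below 0, and only those of Cd177 and Ccr2 go with an adjusted p under the threshold.

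The secondary granule genes Ltf, Ngp and Camp were high in 3 control libraries and low or at 0 elsewhere. Ltf encodes lactoferrin, an iron-binding protein of secondary granules. Its level was 0.461, 0.650, 1.70, 0.122 and 0 CPM in Ccr2 knockout libraries 1 to 5, against 7.78, 6.05, 0.571, 1.90 and 25.4 CPM in control libraries 1 to 5. Control library 3 lay within the knockout range, so the genotypes overlapped. The log2 fold change was -3.83, standard error 1.13 (95% interval -6.32 to -1.33, edgeR adjusted p = 0.135).

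Ngp, which encodes neutrophilic granule protein, a relative of the cathelicidins, had 48, 0, 33, 0 and 0 counts in Ccr2 knockout libraries and 258, 432, 0, 89 and 1474 counts in control libraries. It was therefore undetected in 3 knockout libraries and in 1 control library, and every control library but the third exceeded every knockout library. The log2 fold change was -4.85, standard error 1.57 (95% interval -8.31 to -1.39, edgeR adjusted p = 0.166). Camp encodes the mouse cathelicidin, an antimicrobial peptide precursor. Only 1, 0, 5, 0 and 0 Camp counts were found in Ccr2 knockout libraries, against 48, 55, 0, 6 and 210 in control libraries. Too few libraries held enough Camp reads for the filter on low counts. Without that filter the log2 fold change was -5.59 (edgeR adjusted p = 0.107). Log2 CPM averaged -3.86 in knockout and -0.70 in control libraries, a difference of -3.17 (exact two-sided permutation p = 0.0556, smallest possible 0.00794). That difference uses a prior count of 2, so it is not on the scale of the fitted log2 fold changes. Control library 3 again had no read.

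These 3 genes lie on chromosome 9, as Ccr2 does, by the GENCODE M21 annotation. RefSeq and GENCODE M21 do not place all starts at the same base: the RefSeq start lay 61 bases downstream of the GENCODE start for Ngp, 21 for Ltf, 161 for Camp and 93 for S100a8, and at the same base for Cd177. The bases shown end just before the more upstream start of each gene, and set the 3 granule genes beside S100a8 and Cd177 (RefSeq, GRCm38.p6, 5′ to 3′ on the gene's own strand). They are 100 bases long, or 89 for Camp, where the table holds no more. Capitals mark matches to TTGCNNAA or its reverse TTNNGCAA, letters bound by C/EBP factors, which drive granule genes, and to GAGGAA or its reverse TTCCTC, the core bound by PU.1. The files use another build (GRCm39), so these coordinates were not compared with the counts.
Ngp (chr9:110419647-110419746, + strand): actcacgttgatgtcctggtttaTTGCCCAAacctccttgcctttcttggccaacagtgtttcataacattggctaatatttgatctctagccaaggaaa
Ltf (chr9:111019171-111019270, + strand): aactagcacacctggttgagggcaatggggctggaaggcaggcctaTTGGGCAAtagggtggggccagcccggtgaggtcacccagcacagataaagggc
Camp (chr9:109849618-109849706, - strand): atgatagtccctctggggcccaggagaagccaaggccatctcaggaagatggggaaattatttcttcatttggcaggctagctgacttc
S100a8 (chr3:90668878-90668977, + strand): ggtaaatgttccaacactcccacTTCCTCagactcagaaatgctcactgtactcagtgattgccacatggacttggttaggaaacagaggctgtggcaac
Cd177 (chr7:24760312-24760411, - strand): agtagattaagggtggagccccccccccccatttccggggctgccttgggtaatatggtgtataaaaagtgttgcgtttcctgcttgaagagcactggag

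In these stretches Ngp and Ltf held 1 match each to the C/EBP letters, TTGCCCAA and TTGGGCAA, S100a8 held the PU.1 core, and Camp and Cd177 held neither. In the 250 bases before the RefSeq start, 5 of the 10 members held the C/EBP letters (Lcn2, S100a9, Ngp, Ltf and Retnlg), against 9.56% of 32851 promoters of that length in the table. The PU.1 core was found in 6 of the 10, against 23.3% of those promoters, and Lcn2 and Ltf held both. Where GENCODE starts a gene farther upstream, by up to 513 bases for Lcn2, part or all of that window lies within the gene. A match is a run of letters and was not tested for binding.

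Lcn2, which encodes lipocalin 2, a granule protein that captures bacterial siderophores and is also made by activated macrophages and epithelia, was detected in every library. Its level was 3.16, 0.313, 4.16, 0.0733 and 0.0783 CPM in Ccr2 knockout libraries and 13.3, 10.99, 1.31, 4.20 and 28.5 CPM in control libraries. Control library 3 lay below knockout libraries 1 and 3, and the other 4 controls lay above all knockout libraries. The log2 fold change was -2.90, standard error 1.11 (95% interval -5.35 to -0.44, edgeR adjusted p = 0.248).

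S100a8 and S100a9, adjacent genes on chromosome 3 that encode the subunits of calprotectin, the most abundant cytosolic protein of neutrophils, were the most variable abundant members. S100a8 stood at 30.8, 0.770, 17.6, 0.269 and 0 CPM in Ccr2 knockout libraries, against 67.9, 44.9, 2.49, 16.1 and 119 CPM in control libraries. For S100a9 the levels were 58.97, 1.16, 31.3, 0 and 0.131 CPM in knockout libraries and 111, 65.98, 1.6002, 13.3 and 135 CPM in control libraries. Knockout libraries 1 and 3 exceeded control libraries 3 and 4 for both genes, and the genotypes overlapped. The log2 fold changes were -2.34 (95% interval -5.34 to 0.67) and -1.84 (95% interval -5.11 to 1.44), and both intervals included 0 (edgeR adjusted p = 0.437 and 0.581).

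The subunits did not keep a fixed ratio. For every 100 S100a8 counts there were 192, 150 and 178 S100a9 counts in knockout libraries 1, 2 and 3, against 163, 147, 64.4, 82.7 and 114 in control libraries 1 to 5. Knockout libraries 4 and 5 were too low for a ratio, with 11 and 0 S100a8 counts beside 0 and 5 S100a9 counts. Ngp counts per 100 S100a8 counts were 3.43 and 4.76 in knockout libraries 1 and 3, against 10.1, 23.8, 12.8 and 30.2 in control libraries 1, 2, 4 and 5. Knockout libraries 2 and 4 and control library 3, which had 32, 11 and 87 S100a8 counts, had no Ngp read. Lcn2 did not share that order, and Ltf shared it in knockout libraries 1 and 3 but not in knockout library 2. Lcn2 counts per 100 S100a8 counts were 10.3, 40.6 and 23.7 in knockout libraries 1 to 3, against 19.5, 24.5, 52.9, 26.0 and 23.99 in control libraries 1 to 5. For Ltf the ratios were 1.499, 84.4 and 9.67 in those knockout libraries, against 11.4, 13.5, 22.99, 11.8 and 21.4 in control libraries. Knockout library 2 was above every control for Ltf, on 27 Ltf and 32 S100a8 counts. Knockout library 4 had 5 Ltf and 3 Lcn2 counts beside its 11 S100a8 counts. These ratios describe single libraries and carry no test.

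Among the surface genes, Cxcr2 followed the S100 genes, and Cd177 and Csf3r separated the genotypes. Cxcr2 encodes the receptor through which neutrophils answer CXC chemokines. It had 138, 5, 56, 0 and 0 counts in Ccr2 knockout libraries and 153, 174, 2, 13 and 140 counts in control libraries. Control libraries 3 and 4 lay below knockout libraries 1 and 3. Its log2 fold change was -1.40, standard error 1.33 (95% interval -4.34 to 1.54, edgeR adjusted p = 0.644).

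Cd177 encodes a neutrophil surface glycoprotein, whose human counterpart presents proteinase 3 and binds the endothelial protein PECAM1. It stood at 1.14, 0.0963, 0.938, 0.147 and 0.261 CPM in Ccr2 knockout libraries, against 6.58, 7.76, 3.60, 5.08 and 15.1 CPM in control libraries. Every knockout library lay below every control library, which held for 2 of the 9 tested members and for 2.02% of all genes tested. Cd177 fell to 0.517 ± 0.487 CPM in knockout libraries, against 7.63 ± 4.48 CPM in controls (SD, n = 5 each). The log2 fold change was -3.87, standard error 0.69 (95% interval -5.40 to -2.34, edgeR adjusted p = 0.0244). The adjusted p was 0.0606 and 0.0645 without knockout library 4 or 5, 0.0534, 0.0648 and 0.0513 without control library 1, 2 or 4, and 0.127 with the 2 close pairs of control libraries each counted as 1 library.

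Cd177 was not in proportion to the granule and S100 genes. Control library 3, with no Ngp or Camp read and 87 S100a8 counts, had 126 Cd177 counts, or 145 for every 100 of S100a8. Knockout library 1, with 1401 S100a8 counts, had 52 Cd177 counts, or 3.71 for every 100 of S100a8. Within the knockout genotype Cd177 was nevertheless highest in libraries 1 and 3, the libraries that were highest for S100a8, S100a9, Ngp, Lcn2 and Cxcr2. Within the controls it was highest in library 5, which was the highest of all libraries for 8 of the 10 members.

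**Figure D3:**
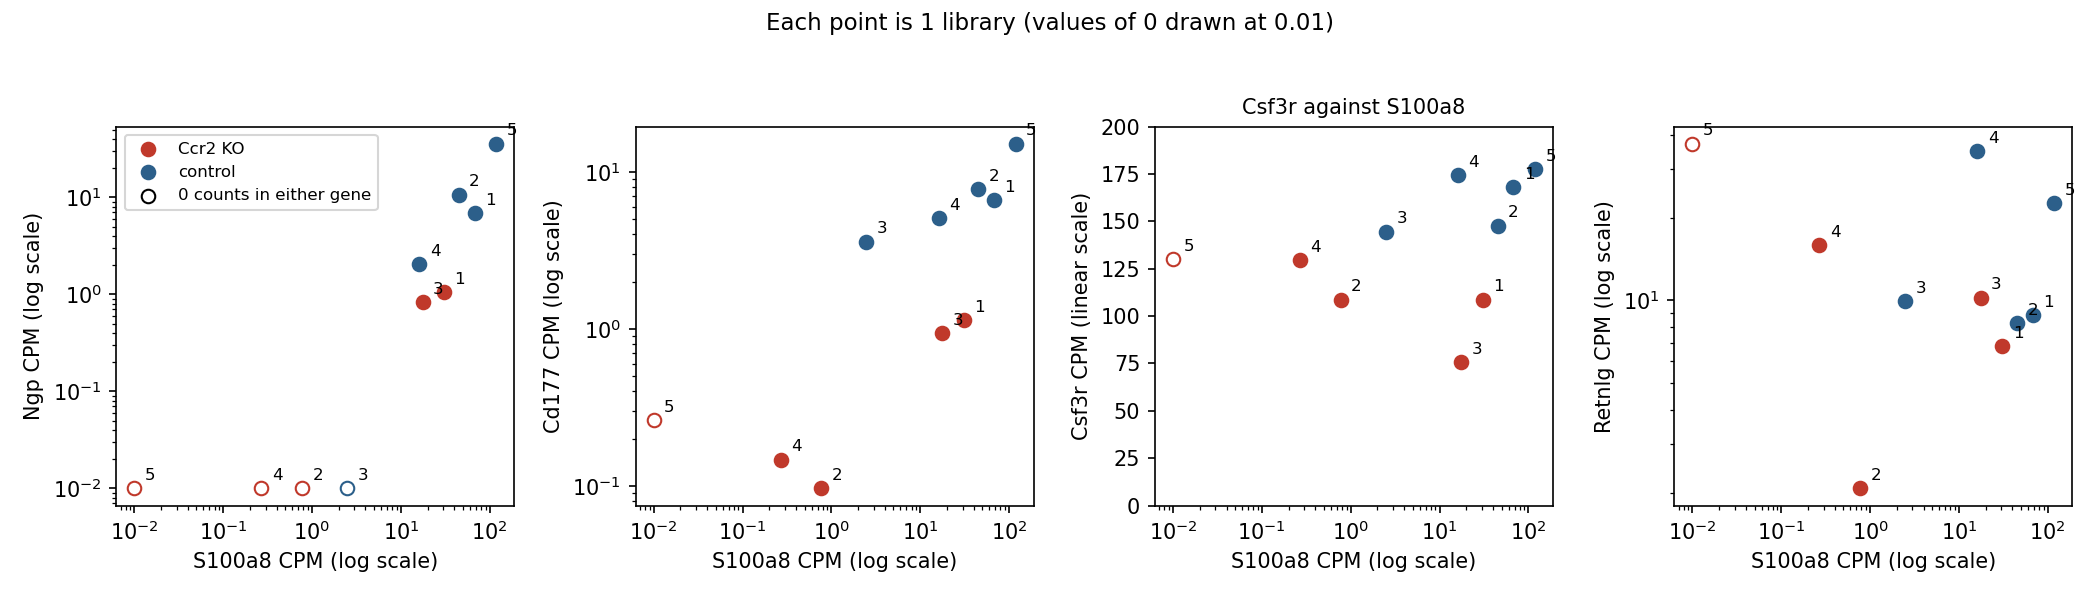
Ngp, Cd177, Csf3r and Retnlg against S100a8, in CPM with 1 point per library and replicate numbers beside the points; the S100a8 axis is a log scale and Csf3r is on a linear scale. Ngp is at 0 in the 4 libraries with the lowest S100a8, Cd177 forms a separate band for each genotype, and Retnlg is highest in knockout library 5, which has no S100a8 read.

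Single libraries weighed on most of these fitted values, but with 1 library left out Cd177 was the only tested member whose call changed and Retnlg the only one whose sign changed. Without knockout library 1 the log2 fold change was -3.43 for S100a8, -3.00 for S100a9, -2.64 for Cxcr2 and -5.72 for Ngp. Without knockout library 3 it was -4.73 for Ltf and -3.66 for Lcn2. Leaving out control library 5 gave -1.71 for S100a8, -3.65 for Ngp, -2.24 for Lcn2 and -2.78 for Ltf. Without knockout libraries 4 and 5 together, the libraries with least S100a8, the values were -1.58 for S100a8, -1.07 for S100a9 and -0.64 for Cxcr2. Under limma-voom with sample quality weights they were -6.20, -5.35 and -3.61 for the same 3 genes, and none of the 3 passed the threshold (limma adjusted p = 0.266, 0.352 and 0.314).

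Classical monocyte genes differed in the same direction as Cd177. Of 19 such genes tested, 9 were called lower and 0 higher, with a median log2 fold change of -2.55. Of all genes tested, 0.543% were called lower. The 9 include Ccr2 itself, the gene replaced in the knockout, so its fall was set by the genotype. Their summed level nevertheless overlapped, at 3228 to 6295 CPM in knockout and 4762 to 10536 CPM in control libraries. Fn1 and F13a1, the 2 genes of the list with positive log2 fold changes (0.15 and 0.56), supplied much of that sum. Fn1 stood at 1606 to 4041 CPM in knockout and 1450 to 4458 CPM in control libraries, and F13a1 at 828 to 2090 and 679 to 1655 CPM. The overlap of the sum thus says little about the remaining genes of the list. Ly6c2, the antigen gene of inflammatory monocytes, stood at 1.21, 7.80, 8.41, 2.52 and 7.23 CPM in Ccr2 knockout libraries and 58.97, 91.3, 109, 86.4 and 79.97 CPM in control libraries. Control library 3 was thus the highest for Ly6c2 and the lowest control for Cd177, and knockout library 1 was the lowest for Ly6c2 and the highest knockout for Cd177. Of the other called monocyte genes, F10 and Mcemp1 took the order of Cd177 among the controls. F10, the coagulation factor X gene, stood at 4.08, 6.02, 6.41, 1.44 and 1.28 CPM in knockout libraries, against 52.9, 86.6, 27.9, 37.3 and 121.8 CPM in control libraries. Mcemp1, a membrane protein gene of myeloid cells, stood at 1.69, 1.42, 3.29, 1.12 and 1.62 CPM in knockout libraries, against 13.2, 14.4, 6.03, 9.39 and 22.4 CPM in control libraries. Both were lowest in control library 3 and highest in control library 5 among the controls, and Chil3, at 966 CPM, was highest in control library 5 too. The granule genes Ngp, Camp and Mmp8 had the same order of controls as Cd177, so that order was not particular to monocyte genes. The part of monocyte transcripts in the Cd177 result was not tested. In these bulk samples, fewer cells of a type and less RNA per cell cannot be told apart.

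Csf3r, which encodes the receptor for granulocyte colony-stimulating factor, was the most even member. It stood at 109, 109, 75.6, 129 and 129.9 CPM in Ccr2 knockout libraries, against 168, 148, 145, 174 and 177 CPM in control libraries. All knockout libraries lay below all controls. Means were 110.4 ± 22.1 CPM and 162 ± 15.3 CPM (SD, n = 5 each), the log2 fold change was -0.56, standard error 0.14 (95% interval -0.87 to -0.24). Over all genes tested the difference missed the threshold (edgeR adjusted p = 0.0936). Csf3r made up 50.7%, 95.5%, 52.6%, 88.7% and 77.6% of the counts of the 10 members in knockout libraries, against 42.5%, 47.95%, 88.1%, 69.1% and 31.3% in controls. It thus supplied most of these reads in the libraries where the S100 and granule genes were near 0.

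Retnlg, a resistin-like secreted protein gene used as a marker of mature neutrophils, did not follow the granule genes. Its level was 6.83, 2.07, 10.2, 15.8 and 37.1 CPM in Ccr2 knockout libraries and 8.84, 8.28, 9.94, 34.8 and 22.5 CPM in control libraries. Knockout library 5, with 1422 Retnlg counts, had no S100a8, Ltf, Ngp, Camp or Cxcr2 read, and control libraries 1 and 2, among the 3 highest libraries for those genes, were the lowest controls for Retnlg. Its log2 fold change was -0.23, standard error 0.66 (95% interval -1.69 to 1.23, edgeR adjusted p = 0.893). Retnla and Retnlb are near relatives of Retnlg. Retnla reached at most 1.49 CPM in knockout and 0.972 CPM in control libraries, and Retnlb had 1 read in all libraries together (both chosen after their values were seen). Reads that map to more than 1 place are listed as 0 in these files, so reads shared within this family are not in the values.

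Eosinophil markers were also highest in knockout library 5 and control library 4, the libraries with most Retnlg. Their summed level was 3.27 to 28.1 CPM in knockout and 2.63 to 26.7 CPM in control libraries, and 0 of the 5 tested passed the threshold. Alox15, a lipoxygenase gene also used by resident macrophages, gave 17.1 and 17.2 CPM of these sums in the 2 libraries, while Epx, the eosinophil peroxidase gene, reached at most 0.0489 CPM and was at 0 in all controls. Prg2, an eosinophil granule protein gene, and Ccr3, the eotaxin receptor gene, were also highest in these libraries among their genotypes, at 2.14 and 2.71 CPM in knockout library 5 and 1.72 and 1.39 CPM in control library 4. Siglecf, a surface marker gene, was highest in knockout library 5 at 2.79 CPM and, among controls, in control library 5 at 2.09 CPM. The part of these cells in the Retnlg level was not tested.

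Per kilobase of exon (GENCODE M21), the order of the members differed between genotypes. In Ccr2 knockout libraries S100a9 averaged 35.1 ± 50.5, Csf3r 31.5 ± 6.31, Retnlg 24.3 ± 23.0 and S100a8 20.3 ± 28.5 CPM per kilobase (SD, n = 5), levels that do not differ beyond their spread. Lcn2 followed at 1.70 ± 2.14, and Ngp, Cxcr2, Ltf, Cd177 and Camp were at or under 0.309 CPM per kilobase. In controls S100a9 averaged 125 ± 112 and S100a8 103 ± 94.7, followed by Csf3r at 46.3 ± 4.36, Retnlg at 28.5 ± 19.6, Lcn2 at 12.7 ± 11.6 and Ngp at 9.06 ± 11.8 CPM per kilobase. Ltf, Cd177, Camp and Cxcr2 were lowest, at 2.98 ± 3.57, 2.81 ± 1.65, 2.08 ± 2.73 and 0.795 ± 0.681 CPM per kilobase.

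**Figure D4:**
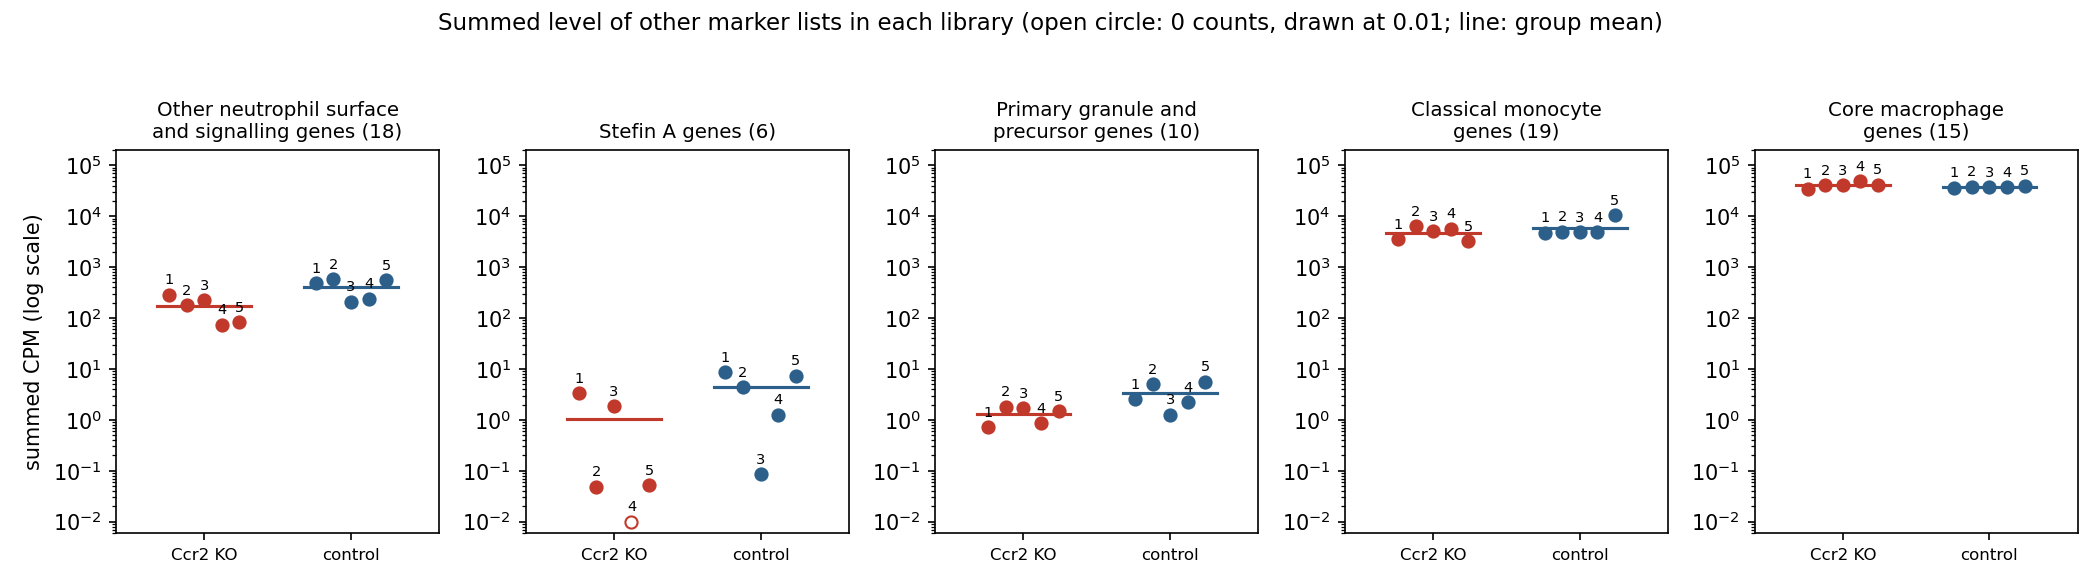
Summed CPM of 5 other marker lists in each library on a log axis, Ccr2 knockout left of control, with the number of genes in each list in the title. Stefin A genes show the same split of libraries as S100a8, from 0 to 3.36 CPM in knockout and from 0.0857 to 8.65 CPM in control libraries, while core macrophage genes stay between 35090 and 48402 CPM in all of them. Any read shared between stefin A genes is not counted.

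Of 18 other neutrophil surface and signalling genes, 12 were tested and 3 fell, among them Ifitm6 and the formyl peptide receptor gene Fpr2. Among all genes tested, 0.543% were called lower. This list shares a called gene with the classical monocyte list, so the counts of these lists are not independent. Ifitm6 averaged 0.652 ± 0.297 CPM in knockout and 4.14 ± 1.84 CPM in control libraries (SD, n = 5 each; log2 fold change -2.66, edgeR adjusted p = 0.0190). Fpr2 averaged 10.7 ± 4.37 CPM in knockout and 29.9 ± 9.61 CPM in control libraries (SD, n = 5 each; log2 fold change -1.48, edgeR adjusted p = 0.0411). The list's median log2 fold change was -1.31. When libraries were left out singly, Fpr2 lost the threshold 8 times in 10, at adjusted p up to 0.107, and Ifitm6 lost it without control library 1 or 2. With the close control pairs summed, 0 of the 12 passed. Ltb4r1, the leukotriene B4 receptor gene, had a log2 fold change of -1.90 (edgeR adjusted p = 0.0833).

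Of 17 other secondary and tertiary granule genes, 15 were tested and none passed the threshold, with a median log2 fold change of -0.51. Wfdc21 had a log2 fold change of -4.21, the haptoglobin gene Hp -3.25, the collagenase gene Mmp8 -2.47 and Pglyrp1 -1.02 (edgeR adjusted p = 0.0888, 0.115, 0.126 and 0.197). The list also holds genes that macrophages express strongly, among them Lyz2 at 8671 ± 2397 CPM in knockout and 7813 ± 2123 CPM in control libraries. Hp is on the list of classical monocyte genes as well. Mmp8 stood at 3.25, 1.54, 5.32, 1.002 and 0.470 CPM in knockout libraries and 13.5, 15.9, 2.37, 6.96 and 25.7 CPM in control libraries, with control library 3 again the lowest control. Mpo and Elane, genes of the earliest granules, were barely present. Mpo, the myeloperoxidase gene, reached at most 0.177 CPM in knockout and 0.413 CPM in control libraries, and Elane, the neutrophil elastase gene, at most 0.101 and 0.389 CPM. Only 2 of 10 primary granule and precursor genes held enough reads to be tested, and neither passed. Prtn3, the proteinase 3 gene, averaged 0.343 ± 0.197 CPM in knockout and 1.36 ± 0.821 CPM in control libraries (SD, n = 5 each). Its log2 fold change was -1.98 (edgeR adjusted p = 0.118). Cebpe, a transcription factor gene of secondary granule formation, had a log2 fold change of 0.0034 (edgeR adjusted p = 0.998).

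Of 17 ligand, receptor and partner genes tested, which include Csf3r and Cxcr2, 1 was called lower, against 0.543% of all genes tested. It was Fpr2, a receptor for the cathelicidin peptide, which is also on the neutrophil surface list. The Cxcr2 ligand gene Cxcl2 stood at 488, 339, 716, 26.6 and 42.2 CPM in Ccr2 knockout libraries and 367, 418, 399.8, 428 and 1227 CPM in control libraries. Knockout libraries 4 and 5 were also the libraries with no Cxcr2 read. Cxcl1, another ligand gene of Cxcr2, was lowest in the same 2 libraries, at 9.80 and 12.8 CPM. Csf3, the ligand gene of Csf3r, averaged 1.72 ± 3.33 CPM in knockout and 1.04 ± 1.16 CPM in control libraries (SD, n = 5 each; log2 fold change 0.72, edgeR adjusted p = 0.841). Tlr4, a receptor for calprotectin, had a log2 fold change of -0.18, Pecam1, a ligand of CD177 in humans, of -1.78, and Slc22a17, a lipocalin 2 receptor gene, of 0.68 (edgeR adjusted p = 0.444, 0.0673 and 0.0916).

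Other S100 genes are related in sequence to S100a8 and S100a9. Of 12, 8 were tested and none passed, with a median log2 fold change of -0.56. S100a11 had a log2 fold change of -1.04 (28.2 ± 12.2 CPM in knockout and 58.0 ± 16.4 CPM in control libraries, SD, n = 5 each, edgeR adjusted p = 0.0936). S100a6 was highest in knockout library 3 at 239.7 CPM and in control library 5 at 229 CPM. Fibroblast markers, which include the matrix gene Postn, were likewise highest in knockout library 3, with summed levels of 340 to 3628 CPM in knockout and 742 to 2368 CPM in control libraries, and 0 of 10 passed the threshold. Their part in the S100 values was not tested.

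The genes most like Ngp and S100a8 in how they varied within each genotype were compared over the 10 libraries. Likeness was the root mean square difference of log2 CPM after the mean of each genotype was removed, over 12369 genes with at least 1 CPM on average. Ngp varied by 2.74 on this scale, and the nearest genes outside the 10 members were Il1f9 (difference 1.05), an interleukin 36 gene, Chil1 (1.21), Asprv1 (1.25), Gm5483 (1.25) and Cxcl3 (1.29), a Cxcr2 ligand gene. Among the members Cxcr2 was nearest to Ngp (1.21). S100a8 varied by 2.84, and its nearest genes outside the members were Cxcl3 (1.03), the growth factor gene Ereg (1.06), Chil1 (1.12), Gm5483 (1.15) and Asprv1 (1.16). Among the members, Camp (2.20), Cd177 (2.12), Csf3r (2.95) and Retnlg (3.38) differed most from S100a8, while Cxcr2 (1.05), Lcn2 (1.13) and S100a9 (1.15) were nearest. All of these values share the same libraries and their depth, and they carry no test.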

How the data were processed

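The values deposited by the authors were whole-number read counts per gene, unstranded and for each strand, in the format STAR writes. The submitters' processing notes name STAR and the GRCm39 build; its version, the annotation and the counting settings are not stated there or in the labels. Poly(A) RNA went into directional libraries, per the labels' protocols. Between 96.2% and 96.5% of strand-assigned counts were on the reverse strand, so that column was used. Unmapped (6.87% to 8.07%), multimapping (listed as 0), ambiguous (1.83% to 2.10%) and unassigned reads (3.63% to 5.68%) were kept out of library sizes. Of 55359 identifiers, 52083 matched a symbol. A combined table with 10 unnamed columns was not used.

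The test across genes was that of edgeR 4.0.16 under R 4.3.3 (quasi-likelihood F-test, filterByExpr with a minimum count of 10, TMM, Benjamini-Hochberg over all genes, threshold 0.05). CPM uses TMM-scaled library sizes, log2 CPM a prior count of 2, and a standard error is the log2 fold change over the square root of F. The test was tested on simulated data. DESeq2 1.42.0 and limma 3.58.1 were alternatives, beside other scalings, filters, a replicate block, summed close libraries and libraries left out. Members and lists were chosen with earlier results of these data known. All members were named, and of each list the genes past the threshold and up to 4 with the smallest p in its main direction. Not every gene that rule gives is described, and 1 gene called lower is not reported here. Among other marker lists, T and NK cell (1 of 14 tested called, higher), dendritic cell (1 of 12, lower), melanoma (1 of 4, higher), B and plasma cell (0 of 3), mast cell and basophil (0 of 6), endothelial (0 of 7), keratinocyte (0 of 4) and erythroid (0 of 1) genes had median log2 fold changes of -1.22, -0.71, -0.086, -0.54, -0.053, -0.60, -1.14 and -0.086. Core macrophage genes had 1 of 15 called, Cd68, higher, and stefin A genes 0 of 2. Figures were drawn with matplotlib 3.10.9.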

Additional observations from a re-analysis of the deposited data

Results flagged for a closer look

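In 3 of the 20 sets of 5 libraries formed by the 10 genes and the 2 genotypes, 1 library stood apart by Dixon's test on CPM. Chance gives this in about 1 of 20 independent sets of normally distributed values. The present sets are skewed, hold zeros and share libraries, so that rate does not apply to them. Camp was at 0.127 CPM in knockout library 3, next to 0.0220 CPM in the nearest knockout library, which is a difference of 5 against 1 counts. Control library 5 stood apart for Camp at 5.10 CPM, with 1.36 CPM in the nearest control library, and for Ltf at 25.4 CPM, with 7.78 CPM in the nearest. For Ltf the gap was 0.7102 of the range, just past the critical value of 0.71. Without control library 5 the log2 fold change of Ltf was -2.78 (edgeR adjusted p = 0.224), against -3.83 with it.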

How the results depend on the processing

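The number of members called lower, 1 at the settings reported, was 2 at an adjusted p under 0.1 (Cd177 and Csf3r), 3 with DESeq2 (Cd177, Csf3r with adjusted p = 0.0144 and Ltf with adjusted p = 0.0315), and 0 with the title number as a replicate block, with the close control libraries summed, with knockout libraries 4 and 5 summed as well, and without knockout libraries 4 and 5. Leaving out 1 library at a time gave 0 to 1. The number of genes called in either direction, 203 as reported, was 444 at an adjusted p under 0.1, 820 with DESeq2, 446 with limma-voom and sample quality weights together, 55 with the replicate block, 29 and 8 with close libraries summed in these 2 ways, 50 without knockout libraries 4 and 5, and 62 to 267 with 1 library left out. The log2 fold change of Retnlg ran from -0.95 (without knockout library 5) to 0.22 (without control library 4) with 1 library left out. It was 0.05 without knockout library 2, and -1.39 without knockout libraries 4 and 5 together (edgeR adjusted p = 0.484). The cause was not tested. Alternatives for Ifitm6, Fpr2 and the counts of list genes were chosen after seeing the data. Over 22 of them, 0 to 5 neutrophil surface genes and 1 to 12 classical monocyte genes were called lower. The monocyte counts include Ccr2, the gene replaced in the knockout. It was the only monocyte gene called with the close control libraries summed and knockout libraries 4 and 5 summed as well. Same-numbered libraries were not consistently alike: their correlation was over 0.1 in 2 of 5 pairs, and 1 of 5 control libraries correlated best with its own number. These values cannot exclude that the title numbers mark pairs, since paired libraries need not correlate. With the block, the adjusted p of Cd177 was 0.104. Depth limits Camp most, with 6 counts in all knockout libraries together, and all intervals and floors cover counting error or the spread between these libraries only.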
